A study of Mus musculus with 43 samples.

Results

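The genes described here are 10 markers of endothelial cells, the cells that line blood vessels: Cldn5, Pecam1, Flt1, Cdh5, Tek, Vwf, Slco1a4, Ly6c1, Ly6a and Kdr. They were chosen by name as a trace of endothelial RNA in libraries of purified glia, and Ly6a was also chosen because its level was higher in Rag2-/- than in control libraries of oligodendrocyte precursor cells (OPCs). They are 10 of the 55416 genes counted in each library, and each of them had counts in at least 1 of the 43 libraries. Oligodendrocytes, OPCs, astrocytes and microglia were immunopanned from the cerebral cortex of 3-month-old mice. In immunopanning, cells settle on dishes coated with an antibody to a surface protein, and the dishes held antibodies to PDGFRα to catch OPCs, to HepaCAM for astrocytes, to GalC for oligodendrocytes and to CD45 in the case of microglia. The Rag2-/- mice carried the strain B6.Cg-Rag2tm1.1Cgn/J allele crossed to C57BL/6J and lack mature T and B cells. The controls were littermates, Rag2+/- in pairs 1, 2, 3 and 5 and Rag2+/+ in pairs 4 and 6. All mice, controls included, came from the same breeding colony, and both sexes were used. Mice of pairs 1, 3 and 4 were male and those of pairs 2 and 5 female. In pair 6 the control was male and the Rag2-/- mouse female, so sex and genotype differ together there. There were 4 control and 4 Rag2-/- oligodendrocyte libraries, 6 and 5 OPC libraries, 6 and 6 astrocyte libraries, and 6 and 6 microglia libraries.

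Endothelial cells of the brain form the blood-brain barrier. Their tight junctions close the space between neighbouring cells, and transporters in their membranes select what passes from the blood. Vascular endothelial growth factor (VEGF) and the angiopoietins reach them through receptor tyrosine kinases and govern the growth and rest of vessels. Vessels are wrapped by mural cells, which are pericytes and smooth muscle cells, and by the endfeet of astrocytes, so a suspension of cortical cells holds all of these beside the glia. Some markers of endothelium are shared with blood cells and their descendants, and Pecam1 is found on many leukocytes and platelets.

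Ly6a and Ly6c1 encode Ly6 proteins, small proteins held on the cell surface by a lipid anchor, and their sequences are shown because the counts of such near copies can be hard to tell apart. Both genes lie on the minus strand of chromosome 15 (build GRCm39, also used for the deposited counts), Ly6a at chr15:74863840-74869880 and Ly6c1 at chr15:74915847-74920686. Over an alignment of 402 columns of the coding sequences, 329 bases (81.8%) were identical. The longest stretch with no difference was 48 bases, shorter than a read of 50 bases:
Ly6a and Ly6c1 shared coding stretch: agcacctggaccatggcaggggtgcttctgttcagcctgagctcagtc

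The start regions of the genes were closer still. Each window below runs from 250 bases before to 50 bases after the start that most coding transcripts of the gene share, read from GRCm39 with GENCODE M39. The capitals mark a stretch of 171 bases that is the same in both, which lies at positions -121 to 50 from the start of Ly6a and -228 to -58 from that of Ly6c1:
Ly6a, chr15:74869831-74870130, minus strand: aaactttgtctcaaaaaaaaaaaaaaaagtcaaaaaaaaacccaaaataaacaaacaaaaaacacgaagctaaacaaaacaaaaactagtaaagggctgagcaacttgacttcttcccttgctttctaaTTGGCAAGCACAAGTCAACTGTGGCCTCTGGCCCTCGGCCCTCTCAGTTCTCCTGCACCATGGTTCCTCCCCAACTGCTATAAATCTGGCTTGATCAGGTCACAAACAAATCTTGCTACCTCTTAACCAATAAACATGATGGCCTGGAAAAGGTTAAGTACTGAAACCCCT
Ly6c1, chr15:74920630-74920929, minus strand: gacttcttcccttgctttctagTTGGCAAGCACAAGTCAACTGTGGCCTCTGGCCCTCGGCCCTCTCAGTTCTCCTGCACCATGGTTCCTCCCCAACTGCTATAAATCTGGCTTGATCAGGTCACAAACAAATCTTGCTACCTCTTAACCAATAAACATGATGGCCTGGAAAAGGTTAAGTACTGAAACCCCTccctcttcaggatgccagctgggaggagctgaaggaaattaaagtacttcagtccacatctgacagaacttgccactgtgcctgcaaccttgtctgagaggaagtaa
In the best local alignment of the 2 windows, 192 of 193 columns were identical. The ETS core AGGAAG, a short motif read by a family of transcription factors that endothelial cells use, was searched on both strands of such windows. It occurred in 4 of the 10 genes (Flt1, Vwf, Slco1a4 and Ly6c1) and in 34.3% of the windows of 21770 coding genes. The letters TATAAA occurred in Flt1, Ly6c1 and Ly6a and in 13.2% of all windows, and TTCNNNGAA, the pattern that STAT factors bind, in none of the 10 and in 8.80% of all windows.

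Of all stretches of 50 bases in the canonical transcript, 37.4% had an exact copy elsewhere in the genome for Ly6c1, 18% for Ly6a and 2.50% for Slco1a4, a transporter gene with neighbouring paralogs. The other 7 genes had none. Reads that align to several places were not counted on a gene, so Ly6c1 and Ly6a may be undercounted. For Ly6a 4.80% of the exonic bases overlap Gm28068 on the opposite strand and for Cdh5 2.00% overlap Gm64067, and whether the counting used strand is not given in the sources used here.

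Library totals on genes ranged from 6499417 to 23118497 counts, with a median of 10447042. Each of 19 marker genes of the 4 glial types was higher in every library of the labelled type than in every other library. Rag2 itself had at most 4 counts in any control library and 0 in all Rag2-/- libraries, and Iftap, which overlaps it, had 14 to 208 counts in controls and 0 to 2 in Rag2-/- libraries. The share of counts on mitochondrially encoded genes was 6.76% to 11.7% in microglia, against 45.8% to 60.1% in oligodendrocytes. All libraries of a cell type were sequenced on the same lane, so differences between cell types and between lanes cannot be told apart. In such bulk libraries more endothelial cells and more RNA per cell cannot be told apart either.

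RNA of these 10 genes was present in libraries of all 4 glial types, and its sum had the highest mean in OPCs. Which cells this RNA came from was not tested. The levels are given in normalized CPM, the usual CPM unit for counts relative to the library total, here after scaling with TMM factors over all 43 libraries. The sum of the 10 genes was 68.2 ± 33.9 (SD, n = 11) in OPC libraries, 41.2 ± 10.9 (n = 12) in microglia, 21.6 ± 13.3 (n = 12) in astrocytes and 21.3 ± 15 (n = 8) in oligodendrocytes. The OPC libraries themselves spanned 32.4 to 141, and the oligodendrocyte libraries 3.69 to 54.1. That sum includes Ly6a and the Rag2-/- OPC libraries that served to choose it. Without Ly6a and in control libraries alone, the sum was 47.9 ± 17.6 (n = 6) in OPCs and 37.3 ± 9.2 (n = 6) in microglia, with ranges of 30.3 to 75.1 and 29.4 to 53.4 that overlapped. By the mean over all libraries, 6 of the 9 genes other than Ly6a were highest in OPCs and Pecam1, Cdh5 and Kdr in microglia, and the same 6 were highest in OPCs in controls alone. Per kilobase of transcript, the highest mean level of the 10 in OPCs was that of Ly6c1 (4.40 normalized CPM per kilobase), followed by Flt1 (2.91) and Slco1a4 (2.76), and Vwf was lowest (0.62). In microglia Pecam1 led (3.83 normalized CPM per kilobase) before Cdh5 (1.71).

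**Figure D1:**
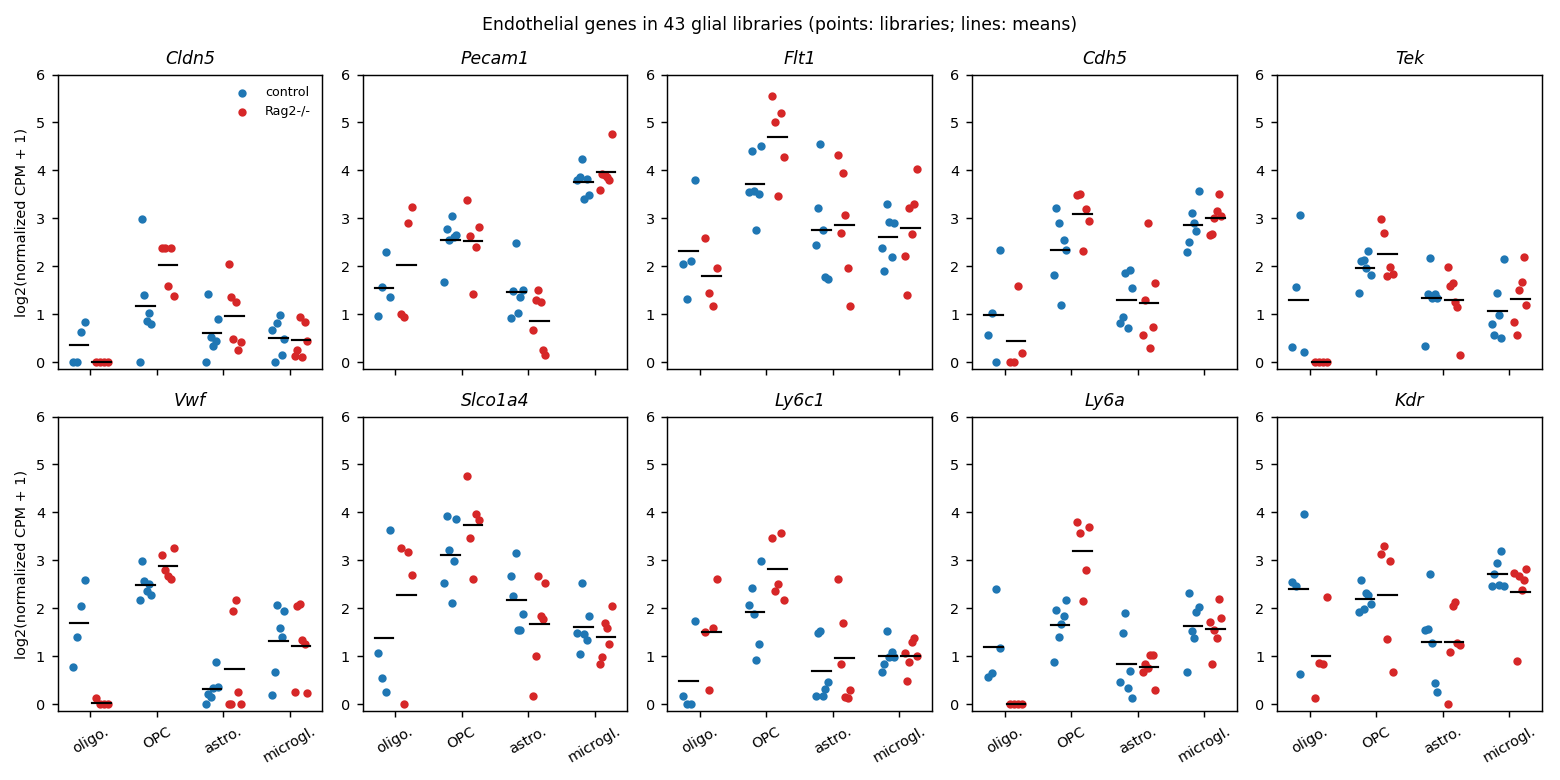
Level of each of the 10 genes as log2(normalized CPM + 1) in every library, by cell type, with control libraries in blue, Rag2-/- libraries in red and group means as black lines. OPC libraries are highest for most genes, Pecam1 is highest in microglia (9.53 to 26.2 normalized CPM), and Tek and Ly6a are at 0 in all 4 Rag2-/- oligodendrocyte libraries.

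The genes of cell junctions and contacts split between OPC and microglia libraries. Cldn5, which encodes the main claudin of barrier tight junctions, had a lowest, median and highest normalized CPM of 0, 1.65 and 6.95 in OPCs, 0, 0.417 and 3.11 in astrocytes, 0, 0.378 and 0.970 in microglia, and 0, 0 and 0.780 in oligodendrocytes, where 6 of 8 libraries had no count. A library with no count allows up to 3 counts, which is a level of 0.306 to 0.555 normalized CPM in oligodendrocytes and 0.195 to 0.450 in microglia (counting error only), so Cldn5 was near that limit in both. Cdh5 encodes VE-cadherin, the cadherin of endothelial junctions, and spanned 3.90, 6.74 and 10.8 in microglia, 1.29, 6.47 and 10.3 in OPCs, 0.233, 1.19 and 6.45 in astrocytes, and 0, 0.310 and 4.06 in oligodendrocytes. Microglia and OPCs overlapped almost fully for Cdh5 and did not differ past the test given below. Pecam1 encodes CD31, an adhesion protein at endothelial contacts, and spanned 9.53, 13.3 and 26.2 in microglia, 1.68, 5.22 and 9.47 in OPCs, 0.923, 1.77 and 8.41 in oligodendrocytes, and 0.113, 1.43 and 4.64 in astrocytes. All 12 microglia libraries lay above all 31 other libraries for Pecam1, though narrowly for OPCs (9.53 against 9.47), while Cldn5 was at 0.970 or less in them. The share of all genes with such a lack of overlap between cell types is not given here.

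The receptors for VEGF and angiopoietin differed in their order. Flt1 (VEGF receptor 1) had a lowest, median and highest normalized CPM of 5.72, 18.3 and 45.8 in OPCs, 1.24, 5.66 and 22.5 in astrocytes, 1.66, 5.94 and 15.3 in microglia, and 1.24, 3.02 and 13 in oligodendrocytes. Kdr (VEGF receptor 2) spanned 0.878, 5.18 and 8.11 in microglia, 0.588, 3.87 and 8.79 in OPCs, 0.102, 2.27 and 14.7 in oligodendrocytes, and 0, 1.41 and 5.53 in astrocytes. The single highest value of Kdr thus came from an oligodendrocyte library, control replicate 6. Tek, which encodes the angiopoietin receptor TIE2, spanned 1.70, 2.96 and 6.96 in OPCs, 0.113, 1.61 and 3.54 in astrocytes, 0.411, 1.13 and 3.56 in microglia, and 0, 0.0780 and 7.41 in oligodendrocytes. For Tek the ranges of all 4 cell types overlapped.

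Vwf encodes von Willebrand factor, the clotting protein that endothelial cells store. It had a lowest, median and highest normalized CPM of 3.53, 5.08 and 8.60 in OPCs, 0.150, 1.59 and 3.26 in microglia, 0, 0.413 and 4.99 in oligodendrocytes, and 0, 0.170 and 3.50 in astrocytes. Every OPC library lay above every microglia and every astrocyte library for Vwf, though narrowly for astrocytes (3.53 against 3.50). The share of all genes with such a lack of overlap is not given here either. Slco1a4 encodes an organic anion transporter of the barrier and spanned 3.3, 10.1 and 26.1 in OPCs, 0, 3.3 and 11.4 in oligodendrocytes, 0.120, 2.63 and 7.96 in astrocytes, and 0.787, 1.79 and 4.75 in microglia. Ly6c1, abundant in brain capillary endothelium, spanned 0.886, 4.16 and 10.8 in OPCs, 0, 1.03 and 5.10 in oligodendrocytes, 0.0937, 0.314 and 5.14 in astrocytes, and 0.390, 0.992 and 1.88 in microglia. Ly6a encodes Sca-1, a surface protein of endothelial and of many stem and immune cells, and spanned 0.852, 3.42 and 13 in OPCs, 0.600, 2.09 and 3.99 in microglia, 0.0962, 0.646 and 2.76 in astrocytes, and 0, 0.241 and 4.26 in oligodendrocytes.

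Differences between cell types were tested with edgeR's quasi-likelihood test in 1 joint fit of all libraries with terms for cell type, sex and genotype, with p-values adjusted by Benjamini-Hochberg over the 19209 genes past the filter on low counts. The replicates were separate mice, but each mouse gave libraries of several cell types. Calls are at an adjusted p under 0.05. Ly6a was left out of the tests against OPCs, since OPC libraries served to choose it. OPC libraries were higher than astrocyte libraries for 7 of the other 9 genes, where 26.1% of all genes were called in that direction and 18.1% in the opposite one. The astrocyte minus OPC log2 fold change was farthest from 0 for Vwf, at -3.16 (SE 0.74, edgeR adjusted p = 0.000484), and nearest to 0 of the 7 for Kdr, at -1.33 (SE 0.51), with an edgeR adjusted p of 0.0322 that became 0.0611 with the mouse as a block. Cldn5 and Tek gave -1.54 and -1.09 in the same contrast and did not pass. In control libraries alone, 2 of the 9 genes were called between astrocytes and OPCs, Pecam1 and Vwf. The shares of all genes are those of the joint fit of all libraries without a block, and none is given for other settings.

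Against microglia, OPC libraries were higher for 5 of 9 genes, beside 40.3% of all genes. These were Slco1a4, Cldn5, Ly6c1, Vwf and Flt1, with microglia minus OPC log2 fold changes of -2.48, -2.50, -2.08, -1.81 and -1.68. The call of Cldn5 was lost with the mouse as a block (edgeR adjusted p = 0.0533). Pecam1 alone was called higher in microglia, by 1.36 on the log2 scale (SE 0.36, edgeR adjusted p = 0.000950), beside 31.4% of all genes. Cdh5 and Kdr differed between microglia and OPCs by 0.12 (SE 0.47) and 0.18 (SE 0.50) and did not pass the test. In control libraries alone 3 of the 9 genes were called. With no block, OPCs were higher than oligodendrocytes for 5 of 9 genes, beside 22.7% of all genes, and lower for none of the 9, beside 17.7%. The log2 fold changes of the 5 were 3.88 for Cldn5, 2.60 for Cdh5, 2.27 for Flt1, 2.11 for Vwf and 1.71 for Ly6c1. With the mouse as a block, Tek and Slco1a4 passed as well (edgeR adjusted p = 0.0111 and 0.0374), which makes 7. In control libraries alone only Pecam1 was called between OPCs and oligodendrocytes, at an edgeR adjusted p of 0.0495, in a fit with fewer libraries, and none of the 5 passed there.

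Microglia were higher than astrocytes for 4 of 10 genes, beside 33.8% of all genes, and lower for none, beside 38.2%. Pecam1 was higher by 3.21 on the log2 scale (SE 0.39, edgeR adjusted p = 6.69e-10), Cdh5 by 1.93, Kdr by 1.5 and Ly6a by 1.31. With the mouse as a block Vwf was called too (edgeR adjusted p = 0.0303). The call of Ly6a was lost in control libraries alone, at an edgeR adjusted p of 0.101, and that of Kdr in Rag2-/- libraries alone, at 0.13. Against oligodendrocytes, microglia were higher for Cdh5 (log2 fold change 2.73), Pecam1 (2.13) and Ly6a (1.5), 3 of 10 beside 33.1% of all genes, and lower for Slco1a4 alone, beside 36.6%. The call of Slco1a4 was lost in 6 of the 7 alternative settings, among them the mouse as a block (edgeR adjusted p = 0.280). Between astrocytes and oligodendrocytes few of these genes were called. Cldn5 was called higher in astrocytes, 1 of 10 beside 22.7% of all genes, with a log2 fold change of 2.34 (SE 0.92), and Pecam1 higher in oligodendrocytes, 1 of 10 beside 28.9%, with -1.08 (SE 0.43). Vwf and Kdr, at -1.05 (SE 0.85) and -1.0 (SE 0.57), did not pass. Neither call held with the mouse as a block, where edgeR gave adjusted p = 0.119 for Cldn5 and 0.0676 for Pecam1.

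**Figure D2:**
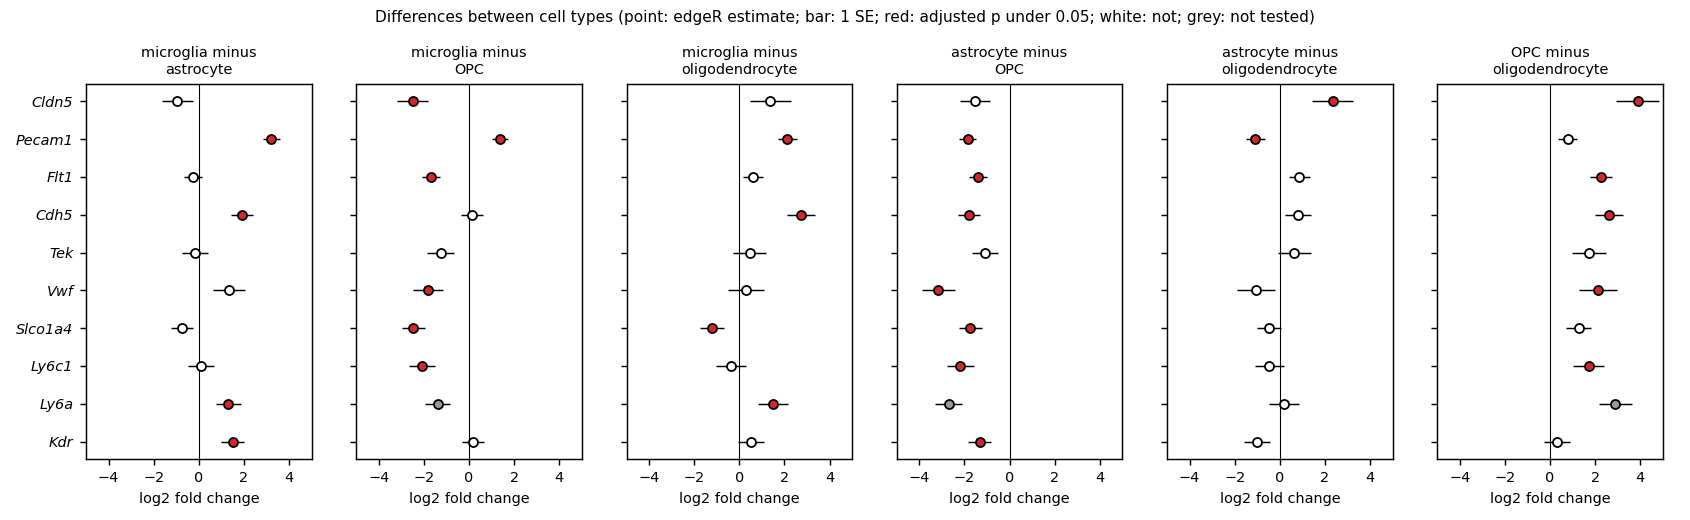
Log2 fold change of each gene between pairs of cell types, with the edgeR estimate as a point and 1 SE as a bar. Red points passed an adjusted p of 0.05, white points did not, and grey points (Ly6a against OPCs) were not tested. The points for astrocytes minus OPCs lie to the left of 0 for all 10 genes, and Pecam1 is to the right of 0 in all 3 panels for microglia.

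Other vascular lists did not share 1 order of the cell types. The sum of 12 mural cell genes had its highest mean in OPCs (238 normalized CPM, against 147 in astrocytes, 57.6 in oligodendrocytes and 41.1 in microglia). The sum of 25 other endothelial genes was highest in microglia (342, against 135 in OPCs), as were venous genes (480 against 61.3) and genes of the VEGF and angiopoietin pathway (441, against 418 in astrocytes and 248.6 in OPCs). Arterial genes (142 in astrocytes against 95.9 in OPCs) and blood-brain barrier genes (818 against 420) were highest in astrocytes. Of the 25 other endothelial genes, 21 passed the filter, and 17 of these were called higher in OPCs than in astrocytes and none lower, with a median log2 fold change of -1.72 (astrocyte minus OPC) against -0.13 over all genes, of which 26.1% were called higher in OPCs. Between microglia and OPCs, 12 of the 21 were higher in OPCs and 5 in microglia, beside 40.3% and 31.4% of all genes. The 3 genes of that list with the highest mean over all libraries, Fli1, Ecscr and Cd34, all had their highest control mean in microglia (146, 53.1 and 44.0 normalized CPM), against 7.05, 2.41 and 3.35 in OPCs. Fli1 encodes a transcription factor shared by blood and endothelial cells. Of 12 mural cell genes 10 passed the filter, and 9 of them were higher in OPCs than in microglia (beside 40.3% of all genes) and 7 higher in OPCs than in astrocytes (beside 26.1%). Blood-brain barrier genes were divided, with 6 of 15 called higher in astrocytes than in OPCs and 6 lower, beside 18.1% and 26.1% of all genes. Among them Slco1c1, a thyroid hormone transporter that astrocytes also make, had control means of 360 normalized CPM in astrocytes and 24.3 in OPCs, and Mfsd2a, a lipid transporter, 99.4 and 160.

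In OPC libraries, the comparison of genotypes was the one by which Ly6a was chosen, so all 10 genes are described there without a test. Ly6a stood at 0.852, 2.89, 1.65, 2.17, 2.56 and 3.53 normalized CPM in control replicates 1 to 6, and at 13, 10.9, 3.42, 5.92 and 11.9 in Rag2-/- replicates 1, 2, 3, 4 and 6. Of the Rag2-/- libraries only replicate 3 fell below the highest control library, and the groups overlapped there. The Rag2-/- library was the higher of the littermates in 5 of 5 pairs, of which pair 6 was not matched for sex. The fitted log2 fold change (Rag2-/- minus control, sex as a term) was 1.89 with an SE of 0.39, and it ranged from 1.54 to 2.13 when each library was left out in turn. The littermate pair as a block gave 2.01, and the range over all settings tried was 1.54 to 2.29.

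The other 9 genes had smaller fitted differences, all above 0. Among junction genes the log2 fold change was 1.16 (SE 0.78) for Cldn5, 0.76 (SE 0.39) for Cdh5 and 0.02 (SE 0.40) for Pecam1. Among receptors it was 1.05 (SE 0.37) for Flt1, 0.45 (SE 0.53) for Kdr and 0.41 (SE 0.38) for Tek. It was 0.96 (SE 0.46) for Ly6c1, 0.67 (SE 0.41) for Slco1a4 and 0.42 (SE 0.26) for Vwf. The median over the 10 genes was 0.72, beside -0.01 over the 16882 genes tested, of which 48.9% lay above 0. Flt1 shows how the pairs differed. It stood at 10.7 normalized CPM in the control and 45.8 in the Rag2-/- library of pair 1, at 20.1 and 31.5 in pair 2 and at 5.72 and 35.4 in pair 4, but at 10.9 and 10.0 in pair 3 and at 21.9 and 18.3 in pair 6. Summed without Ly6a, the 9 genes were higher in the Rag2-/- library in 3 of 5 pairs, the same 3. With each library left out in turn, Pecam1 ranged from -0.41 to 0.25 and so changed sign.

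The level of Ly6a relative to the other endothelial genes rests on the same OPC counts by which Ly6a was chosen, and is no separate evidence. Its counts were 2.7% to 7.18% of the summed counts of the other 9 genes in control OPC libraries (median 4.77%, n = 6) and 6.40% to 19.4% in Rag2-/- libraries (median 10.1%, n = 5). This percentage was higher in the Rag2-/- library in pairs 1, 2, 3 and 6 but not in pair 4, where it was 7.18% in the control and 6.40% in the Rag2-/- library. In astrocytes the medians were 3.86% in controls and 3.54% in Rag2-/- libraries, and in microglia 5.99% and 4.30%, with ranges that overlapped. Other Ly6 genes had fitted differences nearer to 0 in OPCs. Ly6e, a broadly expressed member of the family, had a log2 fold change of -0.05 (SE 0.19), Lynx1, which binds acetylcholine receptors, 0.07 (SE 0.19), and Ly6h 0.28 (SE 0.33). Of 17 Ly6 genes, 5 passed the filter in OPCs and 4 of these were above 0, beside 48.9% of all genes. Those 4 include Ly6c1 and Ly6a itself, which was chosen by this contrast.

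**Figure D3:**
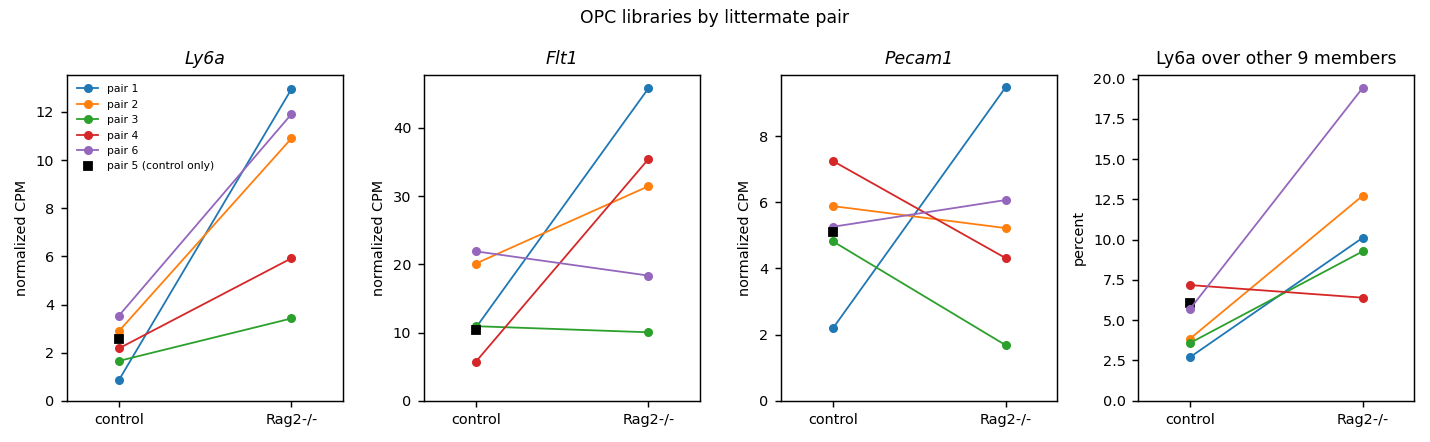
Normalized CPM of Ly6a, Flt1 and Pecam1 and the counts of Ly6a as a percentage of the summed counts of the other 9 genes in OPC libraries, with lines joining the control and Rag2-/- library of a littermate pair and a black square for the control of pair 5, which has no Rag2-/- library. Ly6a goes up in all 5 pairs, whereas Flt1 goes up in 3 and Pecam1 in 2.

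Markers of other cells in OPC libraries are also described by genotype without a test, and some were higher and some lower. Where ranges of sums are given for both genotypes, they overlapped. Of all genes tested in OPCs, 48.9% had a log2 fold change above 0. Mural cell genes summed to 96.2 to 323 normalized CPM in control and 127 to 530 in Rag2-/- libraries, and 8 of the 10 past the filter had a log2 fold change above 0, with a median of 0.59. Rgs5, a pericyte gene, stood at a mean of 49.9 in controls and 94.3 in Rag2-/- libraries, and Myh11, the smooth muscle myosin, at 27.6 and 64.4. The 5 astrocyte markers summed to 1578 to 2200 in controls and 1719 to 4474 in Rag2-/- libraries, and 4 of the 5 had a log2 fold change above 0: it was 0.53 for Slc1a2, 0.73 for Aqp4, 0.97 for Gja1 and 1.09 for Aldh1l1, and -0.11 (SE 0.52) for Gfap. All 4 OPC markers were below 0, at -0.18 for Pdgfra, -0.34 for Olig1 and -0.07 for both Gpr17 and Cspg4, and summed to a mean of 3288 in controls and 3020 in Rag2-/- libraries. The 5 oligodendrocyte markers summed to a mean of 566 and 750, with 4 of 5 above 0, and the 5 microglia markers to 269.8 and 278. Fibroblast genes summed to 105 to 146 in controls and 107 to 122 in Rag2-/- libraries. T and B lymphocyte genes summed to 10.3 to 32.9 and 4.96 to 37.7, and NK cell genes to at most 0.224 in any OPC library. Interferon response genes, to which Ly6a is often assigned in other cells, had a median log2 fold change of -0.02 over the 12 past the filter. The part of these other cells in the difference of Ly6a was not tested.

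Across the 11 OPC libraries the endothelial genes varied together. Of the 45 pairs of the 10 genes, 44 had a Pearson r above 0 on log2(normalized CPM + 1), with a median of 0.57, and all these points share a library, its depth and its mix of cells. The median r was 0.35 in microglia (12 libraries), 0.25 in oligodendrocytes (8) and 0.23 in astrocytes (12). The sum of the 9 genes without Ly6a correlated in OPCs with that of mural cell genes (r = 0.95, Spearman's rho = 0.89), of other endothelial genes (r = 0.93, rho = 0.90), of astrocyte markers (r = 0.85, rho = 0.80) and, inversely, of OPC markers (r = -0.86, rho = -0.88). It correlated with Ly6a at r = 0.78 and rho = 0.76. Both genotypes enter this value and the OPC pairs with Ly6a above, so they share the genotype difference by which Ly6a was chosen. With fibroblast genes r was 0.02 and rho was -0.01. Without the 2 libraries farthest from the median, Rag2-/- replicate 1 and control replicate 4, r was 0.90 for mural, 0.89 for other endothelial and 0.83 for astrocyte genes, -0.73 for OPC markers and 0.70 for Ly6a. These are descriptions over 11 libraries from 6 littermate pairs, with 19 such relations computed.

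**Figure D4:**
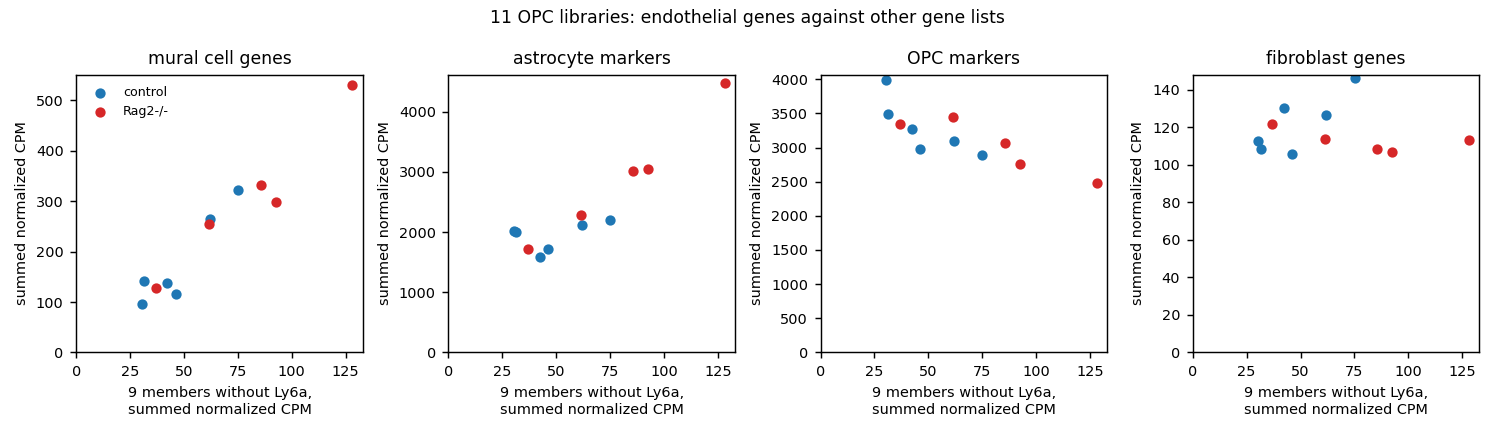
Summed normalized CPM of mural cell genes, astrocyte markers, OPC markers and fibroblast genes (y axes) against that of the 9 endothelial genes without Ly6a (x axes) in 11 OPC libraries, controls in blue and Rag2-/- in red. Mural genes and astrocyte markers are higher where endothelial genes are higher (r = 0.95 and 0.85), OPC markers are lower (r = -0.86), and fibroblast genes show no trend (r = 0.02). The r values are of the sums as log2(normalized CPM + 1), whereas the axes are linear.

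Genes outside the 10 were ranked by their likeness to the mean of the 9 genes without Ly6a, as Pearson r of log2(normalized CPM + 1) over all 43 libraries after each cell type's mean was taken off, among 19199 genes. The highest were Myh11 (r = 0.80), Rgs5 (0.79), Hmcn1 (0.71), Slc22a8 (0.69) and Podxl (0.67), followed by Slc1a2, Adgrf5, Igfbp7, Gstm1 and Wnk2. Myh11 and Rgs5 are mural cell genes, and Slc22a8, an organic anion transporter, and Podxl, a sialomucin of the vessel lining, are known from endothelium. Of 21 other endothelial genes past the filter, 7 had an r above 0.5, beside 0.672% of all genes. For Ly6a over the 11 OPC libraries, among 16881 genes, the 10 most alike were Gm20517 (r = 0.90), Angpt2 (0.90), Spata3, Fgf1, Plcd4, Fam20a, Gm6145, Fkbp10, F3 and Trappc13 (0.88). Angpt2 encodes an angiopoietin that binds the receptor made from Tek. With each genotype's mean also taken off, 2 of these 10 stayed among the 10 most alike. Ranks of the other 9 genes in likeness to Ly6a ran from 126 (Vwf) and 158 (Flt1) to 5733 (Kdr), and these ranks share the genotype difference by which Ly6a was chosen. With genotype means taken off, Pecam1 went from rank 1767 to 8, Vwf and Flt1 to 684 and 692, and Ly6c1 was last of the 9 at 6560.

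Levels in libraries of different cell types from the same mouse showed no common direction. For the 6 pairs of cell types, over 7 to 12 mice, the summed level of the genes correlated between libraries of the same mouse at a Pearson r from -0.63 (oligodendrocytes and astrocytes, 8 mice) to 0.43 (oligodendrocytes and OPCs, 7 mice) and a Spearman's rho from -0.79 to 0.68. Without the 2 farthest mice r ran from -0.62 to 0.51.

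In oligodendrocytes, where edgeR called no gene of 13802 by genotype (0%), none of the 5 endothelial genes past the filter was called and 0 had an unadjusted p under 0.05. Iftap was not called either, with 34 to 77 counts in control and 0 to 2 in Rag2-/- oligodendrocyte libraries. A missing call in this fit therefore does not show a lack of difference. Of the 5 endothelial genes, Kdr had the log2 fold change farthest from 0, -2.64 (SE 1.90), with 4.82, 4.54, 0.555 and 14.7 normalized CPM in control replicates 1, 3, 5 and 6 and 0.102, 0.808, 0.777 and 3.72 in Rag2-/- replicates of the same numbers. Kdr was lower in 3 of 4 pairs. The groups did not overlap for Tek, Vwf and Ly6a, which were too low for the filter. Such a lack of overlap with the Rag2-/- libraries lower was found for 3 of the 9 genes with at least 10 counts in these libraries (all but Cldn5) and for 1.43% of all 22238 such genes. Ly6a stood at 0.482, 0.582, 4.26 and 1.25 in control replicates 1, 3, 5 and 6 and at 0 in all 4 Rag2-/- libraries. The controls held 40 counts of Ly6a in all, a level 15.3-fold that of 3 counts, the limit for the Rag2-/- libraries together. Without control replicate 5, which held 23 of the counts, it was 8.16-fold. Tek stood at 0.241, 1.98, 7.41 and 0.156 in controls and 0 in Rag2-/- libraries. Its 60 control counts gave 22.9-fold that limit, and 9.6-fold without control replicate 5, which held 40 of them. These ratios for Ly6a and Tek leave out the error of the control counts and the spread between mice, so they are not lower bounds. Vwf stood at 0.723, 1.63, 3.15 and 4.99 in controls and 0.102, 0, 0 and 0 in Rag2-/- libraries, 69 counts against 1, a ratio of 79.1 (exact 95% interval 13.7 to 3169, counting error only).

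These 3 genes did not pass edgeR's test without the filter, with adjusted p-values of 0.592 for Ly6a, 0.406 for Tek and 0.592 for Vwf. DESeq2 on all genes called Vwf alone of the 10 genes (log2 fold change -6.08, adjusted p = 0.0462). The share of all genes that this DESeq2 fit called is not given here, so the call has no baseline. Ly6c1 did not share the direction, and Pecam1 did not in most pairs. Ly6c1 was higher in the Rag2-/- library in 4 of 4 pairs, with 0.121, 0, 0 and 2.34 in controls and 1.84, 0.231, 2.02 and 5.10 in Rag2-/- libraries, and Pecam1 in 3 of 4. For Ly6c1 the fitted log2 fold change was 1.57 (SE 1.87), and the groups overlapped. For Pecam1 the fitted value, with sex as a term, was -0.08 (SE 0.88). The largest rise of Pecam1, from 1.56 to 8.41, was in pair 6, where the control was male and the Rag2-/- mouse female. Mural cell genes summed to 16.9 to 185 in control and 12.7 to 58.3 in Rag2-/- oligodendrocyte libraries, and all 7 past the filter had a log2 fold change below 0, with a median of -2.39 and none called. Their part in the lower levels of Tek, Vwf and Ly6a was not tested.

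**Figure D5:**
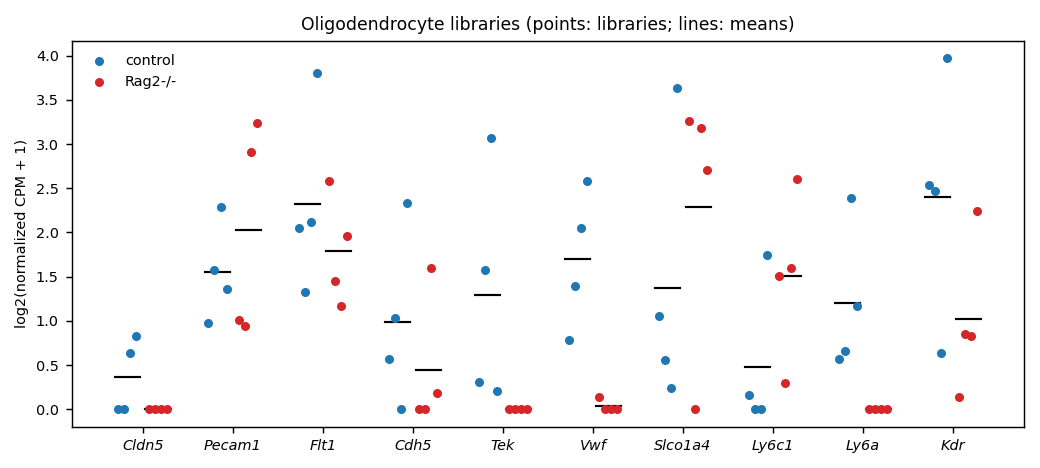
Level of the 10 genes as log2(normalized CPM + 1) in the 4 control (blue) and 4 Rag2-/- (red) oligodendrocyte libraries, with group means as black lines. Tek and Ly6a are above 0 in all controls and at 0 in all Rag2-/- libraries, whereas the groups overlap for Ly6c1, Pecam1, Flt1 and Slco1a4.

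Astrocytes and microglia showed no genotype difference in these genes that passed the test. In astrocytes 6 of the 10 passed the filter and none was called, beside 0.00679% of all genes, and 0 had an unadjusted p under 0.05, and neither edgeR without the filter nor DESeq2 called any. The farthest from 0 was Pecam1, with a log2 fold change of -1.03 (SE 0.60, edgeR adjusted p = 1.00), from 0.896, 1.70 and 4.64 normalized CPM (lowest, median and highest, n = 6) in controls and 0.113, 0.998 and 1.86 in Rag2-/- libraries. In microglia 9 of the 10 passed and none was called, beside 0.00667% of all genes, nor did any have an unadjusted p under 0.05, and edgeR without the filter and DESeq2 called none either. Pecam1 in microglia spanned 9.53, 13 and 17.8 in controls and 11, 13.8 and 26.2 in Rag2-/- libraries, a log2 fold change of 0.15 (SE 0.21). Ly6a spanned 0.600, 2.33 and 3.99 in control and 0.781, 2.09 and 3.56 in Rag2-/- microglia (log2 fold change -0.23, SE 0.41), and 0.0962, 0.496 and 2.76 in control and 0.226, 0.737 and 1.05 in Rag2-/- astrocytes. No gene of the 10 had groups without overlap in astrocytes, microglia or OPCs. Among all genes with at least 10 counts in the cell type, such a lack of overlap was also rare, at 0.126%, 0.129% and 0.392%.

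Sex was tested in the same fits. None of the 10 genes was called by edgeR in oligodendrocytes (5 tested, beside 0.0362% of all genes called), OPCs (10 tested, beside 0.0296%), astrocytes (6 tested, beside 0.0407%) or microglia (9 tested, beside 0.0467%). DESeq2 on all genes called none. At an unadjusted p under 0.05 there was 1 gene in oligodendrocytes, Pecam1, with a female minus male log2 fold change of 2.35 (SE 0.94), and 1 in astrocytes, Flt1, with -1.41 (SE 0.53) from a mean of 10.9 normalized CPM in males and 4.09 in females. Flt1 in astrocytes was called by edgeR when no filter was applied (adjusted p = 0.00621). In OPCs the log2 fold change of Ly6a by sex was 0.52 (SE 0.40), from means of 7.06 in females and 4.36 in males.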

How the data were processed

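RNA of immunopanned oligodendrocytes, OPCs, astrocytes and microglia was amplified as cDNA and sequenced, and the authors deposited whole-number read counts per gene, from STAR 2.7.8a alignments to GRCm39 counted with HTSeq on an Ensembl annotation. The strand setting and overlap mode of the counting are not given in the sources used here. Of the 55416 gene identifiers, 54749 were matched to a name. The 5 summary lines of each library were left out. Read pairs counted on no gene were 33.5% to 52.0% of a library. Normalized CPM and all tests were computed from the deposited counts, with edgeR 4.0.16 (TMM factors, filterByExpr with a minimum count of 10 and total of 15, quasi-likelihood test) in R 4.3.3. Genotype and sex were fitted together within each cell type, and cell types jointly in all 43 libraries. Adjusted p-values are Benjamini-Hochberg over all genes tested, with a threshold of 0.05, and every test was two-sided. Fitted fold changes in OPCs by genotype are given without a test. Alternatives were DESeq2 1.42.0, other scaling, no filter, each library left out, control or Rag2-/- libraries alone, and blocks. Counting depth limits the precision of low genes, and a count of 0 was taken to allow up to 3 counts.

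Same-numbered libraries of both genotypes are littermates according to the study's methods. Their deviations from the group means correlated at a mean r of 0.105 (microglia), 0.119 (OPCs), 0.120 (oligodendrocytes) and 0.155 (astrocytes), against -0.0393 to -0.0214 between different pairs. Libraries of a mouse in different cell types correlated at a mean r of 0.0425 over 57 pairs. None of the 97 pairs of libraries of a group agreed within sampling noise. The astrocyte genotype fit was tested on simulated data with known changes. The changed genes were drawn from those with higher counts only, so this does not show how the fit performs for genes with low counts. The 10 genes and the other lists were chosen with earlier results of these data known. All 10 genes are named in each comparison, with the 3 highest genes of each other list at most (6 for Ly6, fibroblast and VEGF genes) and the 10 genes most like the mean of 9 of them or Ly6a.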

Additional observations from a re-analysis of the deposited data

Results flagged for a closer look

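Of 85 combinations of a gene (or the sum) and a group of 4 to 6 libraries, 14 held a library whose gap to its nearest neighbour passed Dixon's 95% limit. Many levels are low, the genes vary together and the combinations share libraries, so the 14 are not set against a rate by chance. Astrocyte control replicate 3 was the highest of its group for Pecam1 (4.64 normalized CPM, next 1.83), Flt1 (22.5, next 8.34), Kdr (5.53, next 1.97) and the sum of the 10 genes (52.1, next 24). Oligodendrocyte control replicate 6 was the highest for Flt1 (13, next 3.33), Slco1a4 (11.4, next 1.08) and Ly6c1 (2.34, next 0.121). These libraries thus each stood apart in several endothelial genes.

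Among the other libraries, Cldn5 stood at 6.95 normalized CPM in OPC control replicate 2 (next 1.65). Pecam1 stood at 26.2 in microglia Rag2-/- replicate 6 (next 14.2). Kdr was lowest in microglia Rag2-/- replicate 2, at 0.878 (next 4.19). Cdh5 stood at 2.02 in oligodendrocyte Rag2-/- replicate 5 (next 0.138) and at 6.45 in astrocyte Rag2-/- replicate 3 (next 2.14). Vwf stood at 0.102 in oligodendrocyte Rag2-/- replicate 1, where the others were at 0 and the value is a single count, and at 0.850 in astrocyte control replicate 5 (next 0.289).

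Ly6a had within-pair differences of opposite sign in OPCs and oligodendrocytes. The median within-pair difference of log2(normalized CPM + 1), Rag2-/- minus control, was 1.51 in OPCs, with 5 of 5 pairs above 0, and -0.92 in oligodendrocytes, with 4 of 4 pairs below 0. The difference between the cell types was not tested. The OPC value is the one by which Ly6a was chosen, and in oligodendrocytes, with 40 counts in controls and 0 in Rag2-/- libraries, Ly6a did not pass (adjusted p = 0.592 by edgeR without the filter and 0.162 by DESeq2).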

How the results depend on the processing

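Among counts of the 10 genes called and other summary values, 217 recomputed values stayed within their limits, and of the recomputed values for single genes called between cell types 161 stayed past the threshold, 35 lost the call and none changed direction. In control libraries alone, calls were 3 instead of 6 between microglia and OPCs, 2 instead of 4 between microglia and oligodendrocytes, 2 instead of 7 between astrocytes and OPCs and 1 instead of 5 between OPCs and oligodendrocytes, in fits with fewer libraries. Between astrocytes and oligodendrocytes 2 calls became 5 in Rag2-/- libraries alone, 1 with no filter and 0 with the mouse as a replicate block. Library totals without TMM factors gave 9 calls instead of 5 between OPCs and oligodendrocytes, while the median log2 fold change of all genes moved from 0.14 to 1.19. By genotype in oligodendrocytes DESeq2 called 1 of the 10 genes instead of 0, and by sex in astrocytes edgeR with no filter 1 instead of 0. With mitochondrially encoded genes left out of the total and no TMM factors applied, the summed level was 122 in OPCs and 52.6 in microglia. Both the total and the scaling differ there from the main setting. The 10 genes most like the mean of the 9 shared 6 with a pseudocount of 0.1, and those most like Ly6a shared 2 with genotype means taken off. The littermate pair as a block gave 2.01 for Ly6a in OPCs and changed no call by genotype or sex. Where not named above, causes were not tested. Leaving out each oligodendrocyte control in turn, a choice made after seeing the data, gave 9.6-fold to 31.0-fold the limit of 3 counts for Tek. For Ly6a it gave 8.16-fold to 19.3-fold that limit. Low counts, 14 to 53 of Ly6a in control OPC libraries, limit all these values.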
